A study of Homo sapiens with 12 samples.

Results

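The 2-5A synthetase family of interferon-induced antiviral genes was examined in hCMEC/D3 cells, a line of immortalised endothelial cells from human brain microvessels that serves as a model of the blood-brain barrier. Its members were the rows of the deposited gene table named OAS1, OAS2, OAS3 and OASL, which are 4 of 58735 genes, and all 4 passed the filter on low values that left 12176 genes for testing. RNA sequencing covered 4 libraries of cells given SiNP particles of 35 nm, 4 of cells given SiNP particles of 58 nm, both at 100 µg/mL for 24 h, and 4 of untreated control cells. The labels name no vehicle for the controls and do not tie the 4 libraries of each group to separate cultures. P-values therefore measure library-to-library spread, which may be technical.

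OAS1, OAS2 and OAS3 are enzymes that bind double-stranded RNA and then join ATP into short 2-5A oligoadenylates. The oligoadenylates act as second messengers of antiviral defence. OASL is a relative that lost the synthetase activity, carries ubiquitin-like repeats and is known to enhance signalling by the RNA sensor RIG-I. All 4 genes are induced by type I interferon, and OASL is also known to be induced through IRF3 without interferon.

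The libraries held 10039379 to 10469143 reads in genes at 35 nm, 9472317 to 10466096 at 58 nm and 10039422 to 10678269 in the controls, so depth differed little between groups. One library, 58 nm replicate 1, stood apart from its group: the chi-square per degree of freedom of its gene reads against the other 58 nm libraries was 6.36 to 7.74, against 2.28 to 2.38 among those 3. The range was 1.99 to 4.62 within the 35 nm group and 2.54 to 3.41 within the controls. Results that rest on this library are given with and without it. The labelled cell type was weakly borne out by its markers: 5 of 10 endothelial markers averaged at least 1 FPKM (fragments per kilobase of gene length and library size) at 35 nm, 6 at 58 nm and 6 in the controls. CLDN5 and KDR were near 0. The summed endothelial markers ranged over 15.2 to 17.8 FPKM at 35 nm, 15.5 to 17.0 at 58 nm and 15.7 to 17.0 in the controls, so they overlapped between groups. Of 6 mural and fibroblast markers, 5 averaged at least 1 FPKM in each group, with COL1A1 and COL1A2 high. The sum of the 6 markers, mostly these collagens, ranged over 307 to 328 FPKM at 35 nm, 301 to 318 at 58 nm and 273 to 294 in the controls. It was higher in both particle groups, as were the means of COL1A1, COL1A2 and CSPG4. PDGFRB averaged lower, at 19.1 FPKM at 35 nm and 23.2 at 58 nm against 24.0 in the controls. LUM did too, at 7.74 and 7.80 against 8.63 FPKM. Leukocyte markers summed to 0.54 to 1.1 FPKM at 35 nm, 0.94 to 1.68 at 58 nm and 1.14 to 1.27 in the controls, with PTPRC near 0 and CD3E at 0 in every library. Epithelial markers summed to 41.1 to 49.3 FPKM at 35 nm, 45.6 to 54.5 at 58 nm and 51.8 to 55.8 in the controls, with CDH1 at 0. Astrocyte and neuron markers summed to under 1 FPKM, with AQP4 at 0. The leukocyte and epithelial sums at 35 nm lay below those of the controls. Most of the leukocyte sum was CD14, at 0.641 FPKM at 35 nm against 1.04 in the controls, while CSF1R averaged higher (0.176 against 0.091). Most of the epithelial sum was KRT18, at 39.9 FPKM at 35 nm against 49.2 in the controls, while KRT8 and KRT19 overlapped between these groups. The part of these marker differences in the results below was not tested.

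The 3 synthetases fell in both particle groups, to between 33.5% and 43.8% of their control level, while OASL passed the test against the control in neither. OAS1, OAS3 and OAS2 lie next to each other on chromosome 12, and OASL lies 8.01 Mb away on the same chromosome. OAS2 and OASL were the members that passed the test between the particle sizes. In these bulk libraries, fewer cells that express a gene and less of its RNA per cell cannot be told apart.

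OAS1 (ENSG00000089127), the smallest synthetase, spans chr12:112906777-112933222 on the plus strand in GRCh38 coordinates of the deposited table. Its level was 19.8, 19.4, 19.6 and 19.9 FPKM in the 35 nm libraries, 23.4, 19.1, 17.2 and 20.8 FPKM in the 58 nm libraries, and 40.4, 43.5, 56.0 and 48.9 FPKM in the controls. Every particle library was below every control. OAS1 averaged 19.7 ± 0.203 FPKM at 35 nm and 20.1 ± 2.64 FPKM at 58 nm, against 47.2 ± 6.82 FPKM in the controls (SD, n = 4 each). On the log2(FPKM + 1) scale the change was -1.21 at 35 nm (SE 0.097, 95% interval -1.42 to -1.0, adjusted p = 2.98e-06 by limma) and -1.19 at 58 nm (SE 0.097, adjusted p = 1.08e-05 by limma). Here and below, adjusted p-values come from limma with Benjamini-Hochberg adjustment over all 12176 genes, and "rose" and "fell" are used of genes with an adjusted p under 0.05.

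OAS3 (ENSG00000111331), the largest synthetase, spans chr12:112938352-112973249 on the plus strand. It measured 52.1, 52.6, 52.0 and 53.5 FPKM at 35 nm, 53.5, 55.4, 52.0 and 56.4 FPKM at 58 nm, and 106.2, 114.4, 143.8 and 131.2 FPKM in the controls. The particle groups overlapped each other and neither overlapped the controls. The means were 52.6 ± 0.666 FPKM at 35 nm and 54.3 ± 1.95 FPKM at 58 nm, against 123.9 ± 16.9 FPKM in the controls (SD, n = 4 each). The fitted log2 change was -1.21 at 35 nm (SE 0.073, adjusted p = 2.37e-07 by limma) and -1.17 at 58 nm (SE 0.073, adjusted p = 1.19e-06 by limma).

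OAS2 (ENSG00000111335), the synthetase of intermediate size, spans chr12:112978395-113011723 on the plus strand. Its level was 41.3, 47.1, 44.7 and 45.9 FPKM at 35 nm, 55.3, 53.8, 50.5 and 59.1 FPKM at 58 nm, and 117.1, 123.5, 154.7 and 139.1 FPKM in the controls. No group overlapped another, with 35 nm lowest and the controls highest. OAS2 averaged 44.8 ± 2.50 FPKM at 35 nm and 54.7 ± 3.57 FPKM at 58 nm, against 133.6 ± 16.8 FPKM in the controls (SD, n = 4 each). The log2 change was -1.55 at 35 nm (SE 0.078, 95% interval -1.72 to -1.38, adjusted p = 9.84e-08 by limma) and -1.27 at 58 nm (SE 0.078, 95% interval -1.44 to -1.10, adjusted p = 1.19e-06 by limma).

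OASL (ENSG00000135114) spans chr12:121019111-121039242 on the minus strand. It measured 58.9, 60.4, 57.2 and 61.0 FPKM at 35 nm, 51.8, 46.3, 43.9 and 47.5 FPKM at 58 nm, and 47.4, 50.9, 60.6 and 59.7 FPKM in the controls. Both particle groups overlapped the controls but not each other. OASL averaged 59.4 ± 1.69 FPKM at 35 nm and 47.4 ± 3.29 FPKM at 58 nm, against 54.7 ± 6.52 FPKM in the controls (SD, n = 4 each). Against the control, the log2 difference was 0.12 at 35 nm (95% interval -0.034 to 0.28, adjusted p = 0.209 by limma) and -0.20 at 58 nm (95% interval -0.36 to -0.040, unadjusted p = 0.0178, adjusted p = 0.151 by limma).

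Thus 3 of 4 members fell at 35 nm, where 15.2% of all tested genes fell, and the same 3 fell at 58 nm, where 1.95% of all tested genes fell. The median log2 change of all tested genes was 0.003 at 35 nm and 0.010 at 58 nm. The 2 comparisons share the control libraries. Without 58 nm replicate 1 the same 3 members fell at 58 nm, by 1.26 for OAS1, 1.27 for OAS2 and 1.16 for OAS3 on the log2 scale, where 1.73% of all tested genes fell.

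**Figure D1:**
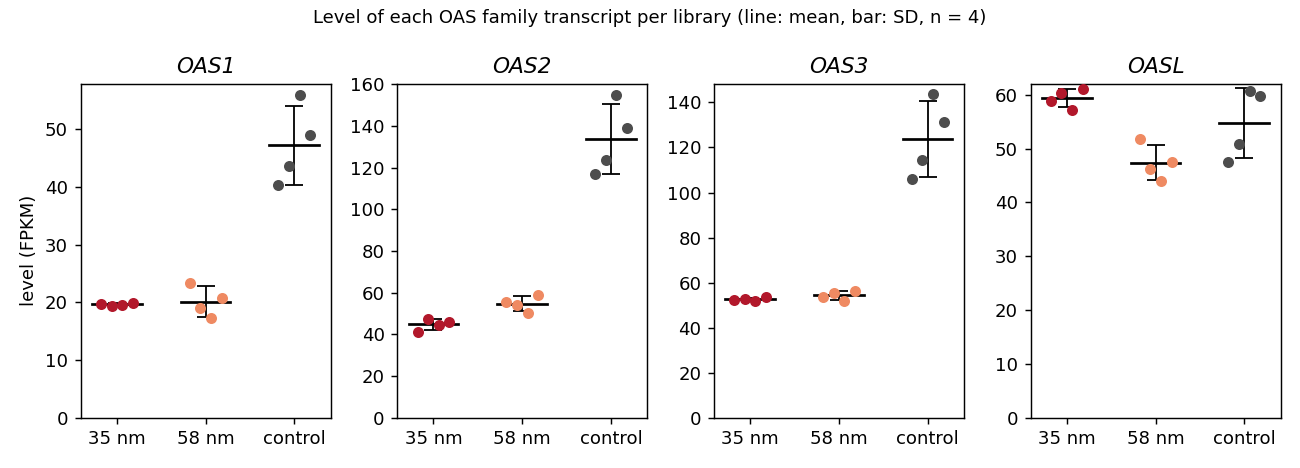
Level in FPKM (y axis, from 0) of each member in the 4 libraries of each group (x axis: 35 nm, 58 nm, control); points are libraries, the horizontal line is the mean and the bar the SD. OAS1, OAS2 and OAS3 sit below every control in both particle groups, while OASL overlaps the controls in both.

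The direct comparison of the particle sizes separated the family. OAS2 was higher at 58 nm than at 35 nm by 0.28 on the log2 scale (95% interval 0.11 to 0.45, adjusted p = 0.0355 by limma), a level of 122.1% of that at 35 nm. OASL was lower at 58 nm than at 35 nm by a log2 difference of -0.32 (95% interval -0.48 to -0.16, adjusted p = 0.0141 by limma), a level of 79.8% of that at 35 nm. For OAS1 the difference was 0.022 (95% interval -0.19 to 0.23, adjusted p = 0.905 by limma) and for OAS3 it was 0.045 (95% interval -0.11 to 0.20, adjusted p = 0.726 by limma), so differences of up to those bounds were not resolved. Among all tested genes, 11.4% passed this comparison in either direction, against 2 of 4 members. The OAS2 call did not hold in 5 of the 12 fits that left out 1 library: without 35 nm replicate 1, 3 or 4 or 58 nm replicate 2 or 4 its adjusted p was 0.0516 to 0.106 by limma. Without the filter on low values, which raises the number of genes tested, the adjusted p was 0.115 for OAS2 and 0.0540 for OASL. Without 58 nm replicate 1, OAS2 was higher by 0.28 (adjusted p = 0.0490 by limma) and OASL had a difference of -0.36 (adjusted p = 0.00627 by limma), while those of OAS1 and OAS3 were -0.050 and 0.052. In that fit 19.1% of all tested genes passed.

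**Figure D2:**
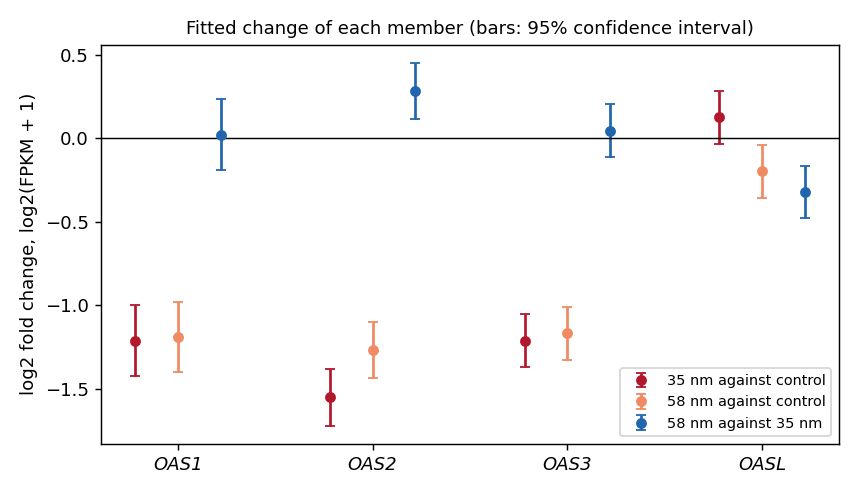
Fitted log2 fold change on the log2(FPKM + 1) scale (y axis) of each member (x axis) for each particle size against the control and for 58 nm against 35 nm; bars are 95% confidence intervals. The intervals of OAS1, OAS2 and OAS3 against the control lie wholly below 0 for both particles. That of OASL does so at 58 nm only, where its adjusted p was 0.151 by limma. Between the particle sizes only the intervals of OAS2 and OASL leave 0 out.

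These shifts changed the make-up of the family. FPKM is per length, here the joined length of all annotated exons: 4947 bases for OAS1, 6264 for OAS2, 8251 for OAS3 and 3517 for OASL. The transcripts present can be shorter, so the order, shares and ratios of members below depend on these lengths. The same lengths were used in every group. The summed level of the 4 genes was 172.1 to 180.3 FPKM at 35 nm and 163.6 to 184.0 FPKM at 58 nm, against 311.1 to 415.0 FPKM in the controls. OASL made up 33.0% to 34.2% of that sum at 35 nm and 25.8% to 28.2% at 58 nm, against 14.6% to 15.8% in the controls. In all 4 libraries at 35 nm the order was OASL, OAS3, OAS2, OAS1 from high to low. At 58 nm OASL followed OAS2 and OAS3 and OAS1 came last in every library, and OAS2 and OAS3 exchanged places between libraries, so this pair was not separated beyond its spread. In all 4 controls the order was OAS2, OAS3, OASL, OAS1. The ratio of OASL to OAS2 was 1.28 to 1.43 at 35 nm and 0.80 to 0.94 at 58 nm, against 0.39 to 0.43 in the controls. OAS2 exceeded the level of 92.5% of tested genes at 35 nm, against 98.6% in the controls.

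The members' order of replicates was shared in the controls and differed in part within the particle groups. In the controls all 4 were ordered replicate 1, 2, 4, 3 from low to high, an order shared by 719 of 12176 tested genes (5.91%). At 58 nm replicate 3 was lowest for all 4 members, replicate 1 was highest for OAS1 and OASL and replicate 4 for OAS2 and OAS3. At 35 nm OAS3 and OASL had the same order, while replicate 2 was lowest for OAS1 and highest for OAS2. Deviations from the group means correlated at r = 0.918 between OAS1 and OASL, 0.819 between OAS2 and OASL and 0.841 between OAS3 and OASL. Among the synthetases these r were 0.771 to 0.900; the 12 points of each share their libraries, the control libraries deviate most, and the values are a description. Over all libraries with the group means kept in, OASL had r = 0.218 with OAS1, 0.047 with OAS2 and 0.167 with OAS3, while the synthetases had r of 0.978 to 0.989 with each other. At 35 nm the coefficient of variation was 1.03% for OAS1 and 1.27% for OAS3, below the 3.17% and 1.5% that counting reads gives, and 5.60% for OAS2 and 2.84% for OASL, above the 1.86% and 2.16% from counting. At 58 nm it was 13.1% for OAS1, 6.53% for OAS2, 3.59% for OAS3 and 6.96% for OASL, above the 1.49% to 3.16% from counting. In the controls the coefficient was 14.4% for OAS1, 12.6% for OAS2, 13.6% for OAS3 and 11.9% for OASL, above the 0.960% to 2.21% that counting gives.

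**Figure D3:**
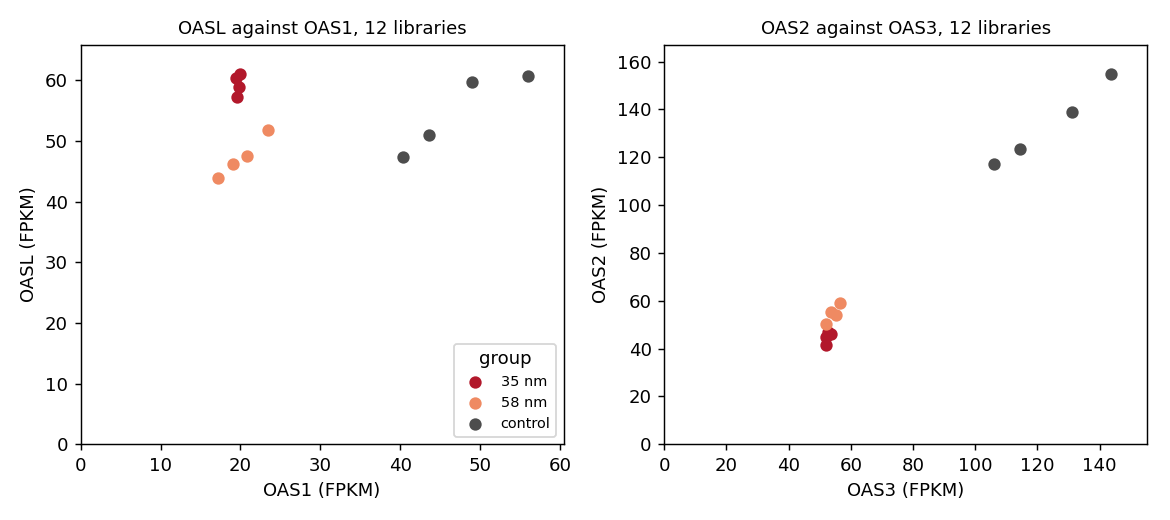
Level of OASL against OAS1 (left) and of OAS2 against OAS3 (right), in FPKM, in each of the 12 libraries; colours mark 35 nm, 58 nm and control. OASL and OAS1 rise together within the 58 nm libraries and within the controls, while the groups are displaced along OAS1; OAS2 and OAS3 rise together over the 12 libraries.

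The windows before the start sites of the clustered synthetases are shown because interferon acts on these genes through promoter elements. RefSeq (GRCh38.p14) gave the 250 bases before the start of OAS1 and OAS3, on the plus strand. OAS2 and OASL were not among the promoters used here. Capitals mark each match of AANNGAAA, the core bound by interferon regulatory factors, searched on both strands and chosen after the windows had been seen.
OAS1 chr12:112906712-112906961: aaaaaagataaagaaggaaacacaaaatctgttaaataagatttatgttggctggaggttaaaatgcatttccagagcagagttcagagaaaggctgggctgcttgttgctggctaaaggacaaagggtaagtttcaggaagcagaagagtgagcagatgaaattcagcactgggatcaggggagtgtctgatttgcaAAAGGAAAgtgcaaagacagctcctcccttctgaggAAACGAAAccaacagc
OAS3 chr12:112938224-112938473: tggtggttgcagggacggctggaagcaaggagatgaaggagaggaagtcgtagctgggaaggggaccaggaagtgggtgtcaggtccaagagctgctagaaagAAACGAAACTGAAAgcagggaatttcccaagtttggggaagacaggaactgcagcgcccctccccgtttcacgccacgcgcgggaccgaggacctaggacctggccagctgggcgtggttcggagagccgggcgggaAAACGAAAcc
OAS1 had 2 matches, at -52 to -45 and -16 to -9 from the start, and OAS3 had 3, at -147 to -140, -141 to -134 and -10 to -3, of which the first pair overlap. At least 1 match was present in 20.6% of 27305 RefSeq promoter windows of this length and at least 2 in 4.71%. The longer core GAAANNGAA of the interferon-stimulated response element, searched on both strands, matched OAS3 at -143 to -135 and -12 to -4, where both matches overlap the shorter core, and had no match in the OAS1 window; 7.06% of all windows held it. The gamma-activated site core TTCNNNGAA matched OAS1 at -168 to -160 and did not match OAS3; 6.78% of all windows held it. A match is only a description of these letters, and the deposited table places the starts of both genes inside these windows.

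Of the tested partners of 2-5A, 1 passed the test, at 35 nm. ABCE1, which recycles ribosomes, averaged 26.9 ± 2.31 FPKM at 35 nm and 26.8 ± 1.13 FPKM at 58 nm, against 26.4 ± 1.41 FPKM in the controls (SD, n = 4 each), with log2 differences of 0.019 for both particles that did not pass the test. PDE12, a phosphodiesterase that degrades 2-5A, averaged 5.06 ± 0.391 FPKM at 35 nm and 4.68 ± 0.312 FPKM at 58 nm, against 4.56 ± 0.138 FPKM in the controls (SD, n = 4 each; adjusted p = 0.139 and 0.842 by limma). AKAP7, an anchoring protein that in mouse was found to degrade 2-5A, fell by 0.34 on the log2 scale at 35 nm, to 1.25 ± 0.339 FPKM against 1.84 ± 0.334 FPKM in the controls (SD, n = 4 each; adjusted p = 0.0458 by limma). That call did not hold in 12 of 22 alternatives. Of the 3 tested partners, 1 passed at 35 nm, a share near the 35.4% of all tested genes that passed there in either direction, and none passed at 58 nm, where limma found 0 at an unadjusted p under 0.05 and limma-voom called 0.

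Most of the other listed genes of RNA sensing fell as well. The list was mainly of sensors and binders of double-stranded RNA, and also held the adaptor MAVS and the RNA-binding protein ZC3HAV1. Of 11 tested, 9 fell at 35 nm (median log2 change -0.68), where 15.2% of all tested genes fell. ZC3HAV1 was among these 9 and MAVS was not. At 58 nm, where 1.95% of all tested genes fell, 6 fell (median -0.57), also without 58 nm replicate 1. EIF2AK2, the kinase PKR that halts translation on double-stranded RNA, fell by 1.09 at 35 nm and by 0.85 at 58 nm on the log2 scale. DDX60, a helicase, fell by 1.11 and by 0.89, and ADAR, which edits adenosines in double-stranded RNA, fell by 0.68 and by 0.57, in the same order of particles. The synthetases' log2 changes of -1.55 to -1.17 were larger in value than those of these 3 genes; this difference was not tested. ZBP1 had 0 to 3 reads per library and was not tested. Between the particle sizes, EIF2AK2 was higher at 58 nm, a call that did not hold in 11 of 23 alternatives.

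Some of the genes that carry or restrain the interferon signal fell as well. The restraining genes listed were USP18, which fell in both particle groups, and SOCS1, which passed in neither. Of 11 tested, 5 fell and 1 rose at 35 nm (median -0.090), where 15.2% of all tested genes fell. At 58 nm, where 1.95% of all tested genes fell, 5 fell and none rose (median -0.15), also without 58 nm replicate 1. STAT2, which with IRF9 is part of the factor that drives the OAS promoters, fell by 0.98 at 35 nm and by 0.80 at 58 nm. IRF7, an inducer of interferon genes, fell by 1.05 and by 0.96, and IRF9 by 0.93 and by 0.59, in the same order of particles. The gene that rose at 35 nm was TYK2, a receptor-associated kinase, by 0.14, where 20.2% of all tested genes rose; this call did not hold in 4 of 23 alternatives. Between the particle sizes, IRF1, a factor that binds the same core, was the only one of the 11 to pass, against 11.4% of all tested genes. Its log2 difference of -0.20 at 58 nm did not hold in 16 of 23 alternatives. Without 58 nm replicate 1, 3 of the 11 passed, against 19.1% of all tested genes. The transcripts of interferons themselves were scarce: 6 of the 10 listed were at 0 in every library, and IFNB1 had 1 to 9 reads. IFNE, the only one tested, averaged 0.909 ± 0.134 FPKM at 35 nm and 1.49 ± 0.149 FPKM at 58 nm, against 1.86 ± 0.703 FPKM in the controls (SD, n = 4 each), and fell at 35 nm (log2 change -0.56, adjusted p = 0.00736 by limma).

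Among 15 other interferon-stimulated effectors, 13 fell at 35 nm (median -0.88), where 15.2% of all tested genes fell. At 58 nm, where 1.95% of all tested genes fell, 14 fell (median -0.92), and 13 fell without 58 nm replicate 1. None rose in either particle group. IFI44L fell by 2.23 at 35 nm and by 1.69 at 58 nm, XAF1, a pro-apoptotic factor, by 1.60 and by 1.26, and IFI44 by 1.13 and by 0.92. IFIT2, which binds viral RNA, averaged 70.3 ± 5.05 FPKM at 35 nm and 53.4 ± 3.36 FPKM at 58 nm, against 71.2 ± 9.10 FPKM in the controls (SD, n = 4 each), and was named after its values had been seen. It fell at 58 nm (log2 change -0.40, adjusted p = 0.0168 by limma, not held in 3 of 23 alternatives) and was lower at 58 nm than at 35 nm (log2 difference -0.39, adjusted p = 0.00992 by limma). Like OAS2, IFI44L and XAF1 were higher at 58 nm than at 35 nm, by 0.54 and 0.34; the call of IFI44L did not hold in 2 of 23 alternatives. The control order of replicates seen in the OAS members was present in 13 of these 15 genes.

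**Figure D4:**
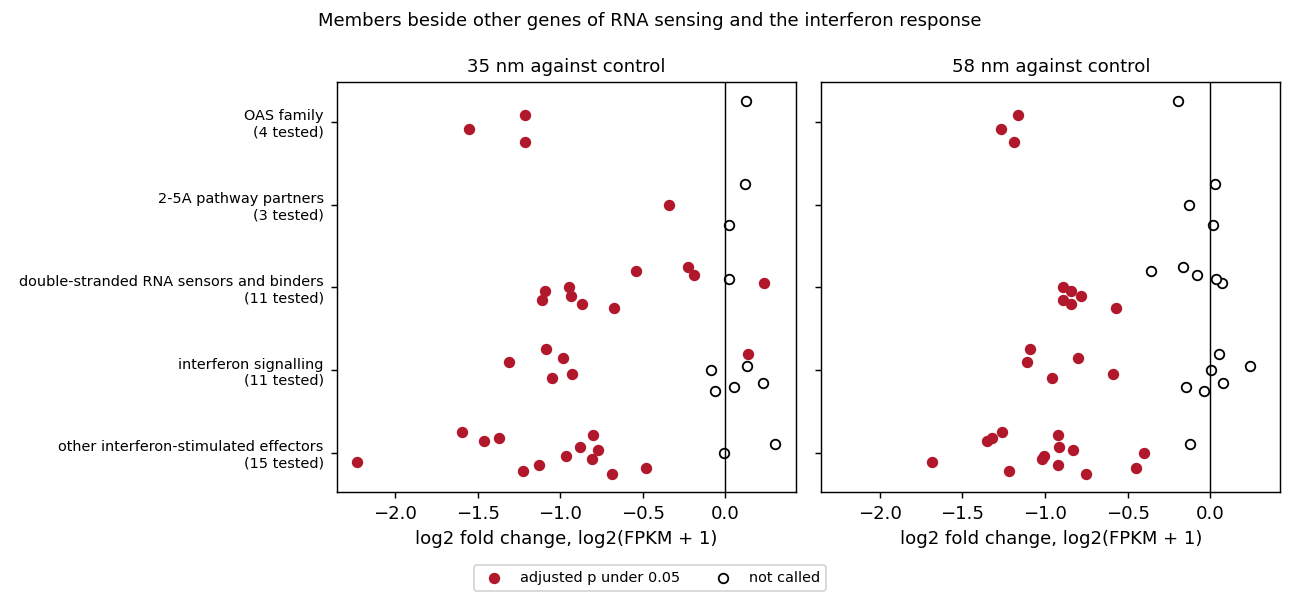
Log2 fold change on the log2(FPKM + 1) scale (x axis) for 35 nm against control (left) and 58 nm against control (right), 1 point per tested gene, grouped in rows by list; filled points have an adjusted p under 0.05. The 3 synthetases lie among the other interferon-stimulated effectors, and OASL lies near 0.

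Genes whose log2 levels over the 12 libraries were most like each member were sought among the 7663 genes that averaged 5 FPKM or more. For OAS1 these were UBA7 (r = 0.996), MX1, MX2, IRF7 and ISG15 (r = 0.991). For OAS2 they included IFI44 (r = 0.998), PARP9, SAMHD1 and DDX60 (r = 0.996), and for OAS3 MX1 (r = 0.995), MX2, IFIH1, HERC6 and HELZ2 (r = 0.992). For OASL they were OPTN (r = 0.965), STC2, ATP6V1B2, MCL1 and HLA-F (r = 0.859). No gene stood in both the OASL set and a synthetase set. OAS3 ranked 8 among the genes most like OAS1, and OASL ranked 2528. These r are descriptions over libraries that fall into 3 groups.

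The 3 synthetase genes form a tight cluster, 104.947 kb from the start of OAS1 to the end of OAS2 with gaps of 5.13 and 5.146 kb. Of the 3 nearest tested coding genes on each side, none fell in either particle group. DDX54, a helicase gene 145 kb beyond OAS2, rose by 0.43 at 35 nm (adjusted p = 2.08e-05 by limma), where 20.2% of all tested genes rose. RITA1, RPL6 and PTPN11 rose there by 0.24, 0.27 and 0.22. The call of RITA1 did not hold in 7 of 23 alternatives and that of PTPN11 in 1. At 58 nm, where 2.18% of all tested genes rose, 1 of these 6 neighbours passed, RPL6, which rose by 0.15 (adjusted p = 0.0462 by limma). This call did not hold in 14 of 23 alternatives. Around OASL, the nearby genes SPPL3, ACADS, P2RX7, P2RX4 and CAMKK2 did not pass in either comparison against the control.

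**Figure D5:**
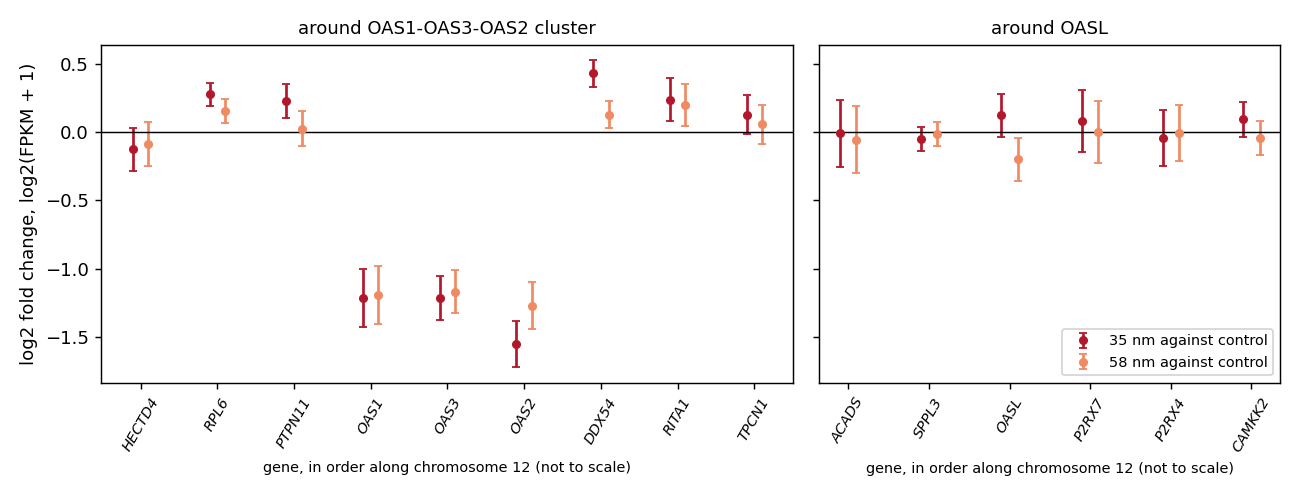
Log2 fold change on the log2(FPKM + 1) scale (y axis) of the members and tested coding genes near them in chromosomal order (x axis, not to scale), around the clustered synthetases (left) and around OASL (right); bars are 95% confidence intervals. Only OAS1, OAS3 and OAS2 lie far below 0, and their neighbours lie between -0.13 and 0.43.

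An antisense gene, AC004551.1, overlaps the whole of OAS2 and OAS3 and most of OAS1 and was given 0 to 9 reads per library. The sources used here do not state whether counting used strand, so reads in stretches that AC004551.1 shares with an OAS gene cannot be told apart. On either strand, 63 of the 5050 words of 31 bases in annotated OAS1 transcripts also occurred in AC004551.1. For OAS2 and OAS3, no other gene shared more than 15 of 6347 and 57 of 8266 words. The share of 31-base words in the annotated transcripts that also occur in another gene was 3.55% for OAS1, 1.96% for OAS3, 0.299% for OAS2 and 0.700% for OASL. OAS1 and OASL shared 1 such word, and no other pair of members shared any.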

How the data were processed

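RNA from 12 libraries was sequenced, 4 per group. The authors deposited a table of FPKM values per gene with gene lengths, per the file headers. Reads were aligned with Bowtie 0.12.2 to hg19, per the submitters' processing notes, yet all 58735 genes equal GENCODE 29 (GRCh38) in position and length; the alignment build is unresolved, and the sources used here do not name the counting tool. FPKM times length gave whole reads for 100% of values (tolerance 0.01 reads). No replicate pair was within sampling noise (chi-square per degree of freedom 1.99 to 7.74 in 18 pairs).

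Genes averaging 1 FPKM or more (12176) were fitted as log2(FPKM + 1) with limma 3.58.1 (R 4.3.3; trended, robust prior; 3 group means over all 12 libraries), two-sided, with Benjamini-Hochberg adjustment. The pseudocount of 1 understates folds of low genes. The scripts were tested on simulated data. Alternatives were another pseudocount, filter, normalization, limma-voom on the recovered reads, length and GC trends, a replicate block and leaving out each library.

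Named genes were the members, the 2-5A partners, the 3 genes with the smallest p per list, the 5 genes most like each member, the 3 nearest coding genes per side and overlapping genes. IFIT2, IRF9, IRF1, IFNE and TYK2 were named after their values were seen. Members and lists were chosen with earlier results of these data known. Some of these genes are not reported here. Counting errors cover reads, not cultures.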

Additional observations from a re-analysis of the deposited data

Results flagged for a closer look

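OAS2 and OASL were the members whose level differed between the particle sizes by a test of the difference itself. OAS2 was higher at 58 nm than at 35 nm by 0.28 on the log2(FPKM + 1) scale, with all 4 libraries at 58 nm above all 4 at 35 nm. OASL was lower at 58 nm than at 35 nm, with a log2 difference of -0.32, and all 4 libraries at 58 nm were below all 4 at 35 nm. Both differences kept their call without 58 nm replicate 1, the library that stood apart from its group over all genes (chi-square per degree of freedom 6.36 to 7.74 against the other 58 nm libraries). The OAS2 call did not hold in 6 of 23 alternatives, and only 7 of the 12 fits that left out 1 library kept it. The OASL call did not hold in 1 of 23 alternatives, the fit without the filter on low values. For the levels of single named genes, Dixon's test set no library apart in any of 51 groups of 4 libraries.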

How the results depend on the processing

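The falls of OAS1, OAS2 and OAS3 against the control kept their direction and their call in all 23 alternatives, with log2 changes of -1.29 to -1.13, -1.66 to -1.48 and -1.35 to -1.14 at 35 nm and of -1.26 to -1.11, -1.33 to -1.19 and -1.24 to -1.09 at 58 nm. Replicate numbers did not pair the libraries (r of same-numbered libraries -0.065 to 0.159 over 12 pairs). With them as a replicate block, 4187, 453 and 1272 genes were called for 35 nm and 58 nm against the control and for 58 nm against 35 nm, and no member's call changed (OAS2 adjusted p = 0.0425 and OASL adjusted p = 0.0316 by limma between the particle sizes). Without a filter, 252 genes were called for 58 nm against control (503 with it) and 723 for 58 nm against 35 nm (1382 with it), and between the particle sizes OAS2 (0.28, adjusted p = 0.115 by limma) and OASL (-0.32, adjusted p = 0.0540) missed the threshold; more genes were then tested. Leaving out 1 library gave 230 to 558 calls for 58 nm against control (230 to 319 without control replicate 2, 3 or 4 or 58 nm replicate 2 or 3) and 723 to 2324 calls for 58 nm against 35 nm (2324 without 58 nm replicate 1, and 723 to 878 without 35 nm replicate 1 or 3 or 58 nm replicate 3 or 4). It gave 0.24 to 0.32 for OAS2 and -0.050 to 0.091 for OAS1 between the particle sizes. Small differences changed sign: OASL at 35 nm was -0.0057 under quantile normalization; ABCE1 at 35 nm was -0.025 under upper-quartile rescaling, -0.056 under quantile normalization and -0.025 to 0.060 with a library left out, and at 58 nm -0.0052 under quantile normalization and -0.0020 to 0.049 with a library left out; OPTN at 35 nm was -0.0015 and -0.047 under the same pair of scalings; MCL1 at 35 nm was -0.0041 under quantile normalization; IRF7 between the particle sizes was -0.0080 to 0.17 with a library left out. The cause was not tested. The share of calls that were higher was 57.1% at 35 nm (44.7% under upper-quartile rescaling), 52.7% at 58 nm (36.1% without a filter) and 31.2% between the particle sizes (48.2% under upper-quartile rescaling).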

Other observations

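The genes below were picked because their levels ran with a member's over these same 12 libraries, so their direction follows from that choice and their values are given as a description, with no test. Of the genes most like OASL, STC2, a secreted glycoprotein, averaged 44.5 ± 2.73 FPKM at 35 nm and 31.4 ± 1.86 FPKM at 58 nm, against 36.6 ± 3.14 FPKM in the controls (SD, n = 4 each). OPTN, an autophagy receptor, averaged 39.6 ± 0.824 FPKM at 35 nm and 35.8 ± 1.33 FPKM at 58 nm, against 38.5 ± 2.39 FPKM in the controls (SD, n = 4 each). MCL1, an anti-apoptotic BCL2 relative, averaged 95.2 ± 3.17 FPKM at 35 nm and 82.3 ± 3.66 FPKM at 58 nm, against 86.6 ± 3.57 FPKM in the controls (SD, n = 4 each).

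Of the genes most like the synthetases, SAMHD1, a dNTP hydrolase that restricts viruses, averaged 24.6 ± 0.972 FPKM at 35 nm and 27.2 ± 0.736 FPKM at 58 nm, against 48.7 ± 3.79 FPKM in the controls (SD, n = 4 each). UBA7, the activating enzyme of ISG15, averaged 20.5 ± 0.344 FPKM at 35 nm and 20.5 ± 0.990 FPKM at 58 nm, against 30.6 ± 2.32 FPKM in the controls (SD, n = 4 each).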
